A study of Mus musculus with 6 samples.

Results

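Rnf165 and 9 further genes of bone morphogenetic protein (BMP) signalling were followed in NSC-34 cells after depletion of Quaking. The 10 members are the ubiquitin ligases Rnf165 and Rnf111, the signal transducers Smad1, Smad5, Smad9 and Smad4, the receptors Bmpr1a and Bmpr2, and the targets Id1 and Id2. They were chosen by gene symbol, and the difference of Rnf165 between siQk and siNC in these same libraries was known at the time. The levels in that contrast therefore count as the values that selected the list, and they are given below as a description without a test. All 10 were among the 23038 genes of the deposited tables, and 10 of 10 passed the filter on low counts (a mean above 0 on the log2 CPM scale, in which counts are scaled to library size), as did 12665 genes in all.

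NSC-34 cells are a mouse line with motor neuron traits that descends from a fusion of neuroblastoma cells with embryonic spinal cord cells. Cells received control siRNA (siNC, 3 libraries) or siRNA directed at Qk (siQk, 3 libraries), the gene of the Quaking RNA-binding proteins, and polyadenylated RNA was sequenced. According to the labels, 3 different siRNAs against Qk were used, without saying which library received which. Both groups share the line and the culture medium, and no added BMP ligand is named for either.

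BMP ligands bind paired type I and type II receptor kinases at the cell surface. The type I receptor phosphorylates Smad1, Smad5 and Smad9, which join Smad4 and enter the nucleus, where they switch on targets such as the Id genes. Rnf165 and its relative Rnf111 (Arkadia) are RING-type ubiquitin ligases that remove repressors of Smad-driven transcription. In motor neurons Rnf165 is known for promoting BMP signalling and axon growth.

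Library totals ran from 43000503 to 53565950 counts. Qk (Entrez 19317) lay between 8.18 and 14.9 RPKM (reads per kilobase of exon, scaled to library size) in siNC and between 1.10 and 1.71 RPKM under siQk, so each library lay on the side of its label. Its log2 fold change was -2.997 (SE 0.34, adjusted p = 0.0149, edgeR quasi-likelihood test with Benjamini-Hochberg adjustment), and it lost the call without siNC replicate 1 (adjusted p = 0.125). siQk replicate 2 and siNC replicate 3 stood apart on the first and second principal components (41.2% and 28.9% of the variance). Among 11 motor neuron markers, Prph led at 629 RPKM, and Nefh, Nefl, Nefm, Isl1, Isl2 and Slc18a3 also passed the filter. Isl1, a motor neuron transcription factor, was the 1 marker of that list with an unadjusted p under 0.05. It was at 4.75 to 4.83 RPKM in siNC and at 7.80 to 9.63 RPKM in siQk, without overlap, a log2 fold change of 0.82 (SE 0.10, adjusted p = 0.9996, edgeR quasi-likelihood test), and DESeq2 called it. Its part in the results below was not tested. The 11 markers summed to 644 to 1097 RPKM in siNC and 566 to 845 RPKM in siQk, which overlapped. The defining markers Mnx1, Lhx3, Chat and Slc5a7 did not pass the filter on low counts, at mean levels of 0.0395, 0.306, 0.0883 and 0.00734 RPKM. All 8 neuroblastoma markers passed, led by Hand2 at 162 RPKM, whereas the most abundant astrocyte, muscle, microglia and fibroblast markers (Slc1a2, Des, Aif1 and Col1a1) had 1.85, 0.642, 0.0924 and 0.0626 RPKM. Of 7 oligodendrocyte markers, 2 passed the filter and 5 did not. Among those that did not, the lineage markers Olig1, Olig2 and Sox10 had at most 1, 1 and 4 counts in a library.

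Rnf165 was lower in siQk, at 47.5% of its control mean, whereas Id2 was at 214%, and the groups overlapped for the 8 other members. By the call used here (p under 0.01 and adjusted p under 0.1 over all genes tested, siQk against siNC), 0 of 10 members were called, beside 1 gene of 12665 (0.00790%), which was Qk. That gene was lower, and 0 genes (0%) were called higher. The groups did not overlap for 2 of 10 members, Rnf165 on the lower and Id2 on the higher side. Over all genes tested the groups did not overlap for 8.52%, with siQk below siNC for 4.07% and above it for 4.45%. With the same cutoffs, DESeq2 called 19 genes (0.150%), 1 of them a member, Rnf165, and the edgeR exact test called 5 genes (0.0395%), 0 of them members. Since the list was chosen with this contrast in view, nothing is read from these counts. The members' log2 fold changes had a median of -0.12, or -0.0725 without Rnf165, and those of all genes tested had a median of 0.0034. In whole cultures, fewer expressing cells and less RNA per cell cannot be told apart.

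**Figure D1:**
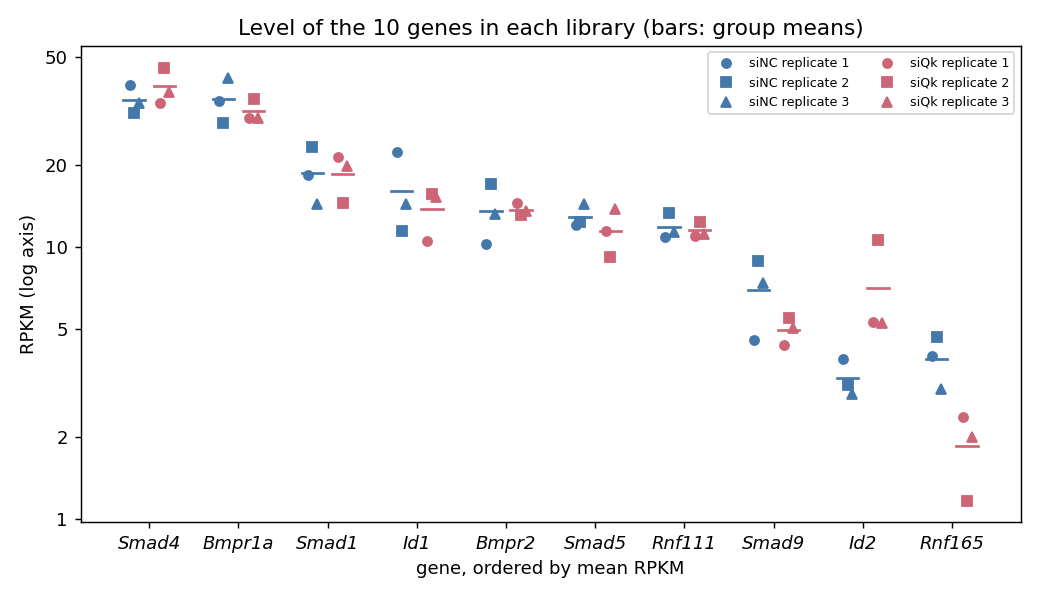
Level of the 10 members in RPKM on a log axis, with 1 point per library (siNC blue, siQk red, symbols for replicates) and bars for group means. The groups separate for Rnf165 (siQk at 1.17 to 2.37 RPKM, siNC at 3.02 to 4.69 RPKM) and in the opposite direction for Id2, and overlap for the others.

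Rnf165 (Entrez 225743, a protein-coding gene on the minus strand of GRCm38 chromosome 18, 77456110 to 77565161) encodes the ligase that gives the list its name. Its level was 3.98, 4.69 and 3.02 RPKM in siNC replicates 1 to 3 and 2.37, 1.17 and 2.01 RPKM under siQk replicates 1 to 3. The highest siQk library thus lay below the lowest siNC library, and siQk replicate 2 was the lowest of all. Mean levels were 3.90 ± 0.838 RPKM for siNC and 1.85 ± 0.615 RPKM for siQk (SD, n = 3). These levels rest on 478 to 1693 counts per library, and no other annotated gene shares its exons. The log2 fold change was -1.09 (SE 0.35).

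The log2 fold change of Rnf165 ran from -1.31 without siQk replicate 1 to -0.85 without siQk replicate 2. It was -0.98 without both of the libraries that stood apart. The groups did not overlap, so leaving out 1 library could change the size but hardly the direction. The siQk library with the lowest Rnf165, replicate 2, had the highest residual Qk of that group, at 1.71 RPKM.

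Rnf111 (Entrez 93836, chromosome 9, 70425424 to 70503725, minus strand) encodes the paralogous ligase. It stood at 10.9, 13.4 and 11.4 RPKM in the siNC libraries and at 11.04, 12.4 and 11.2 RPKM in the siQk libraries, and the groups overlapped throughout. Its log2 fold change was -0.07 (SE 0.09), with the smallest standard error among the members. Within a library, the ratio of Rnf165 to Rnf111 in RPKM was 0.326 ± 0.0538 in siNC and 0.163 ± 0.0617 in siQk (SD, n = 3). Rnf111 was the more abundant ligase in each library, and the ratios of the groups did not overlap.

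**Figure D2:**
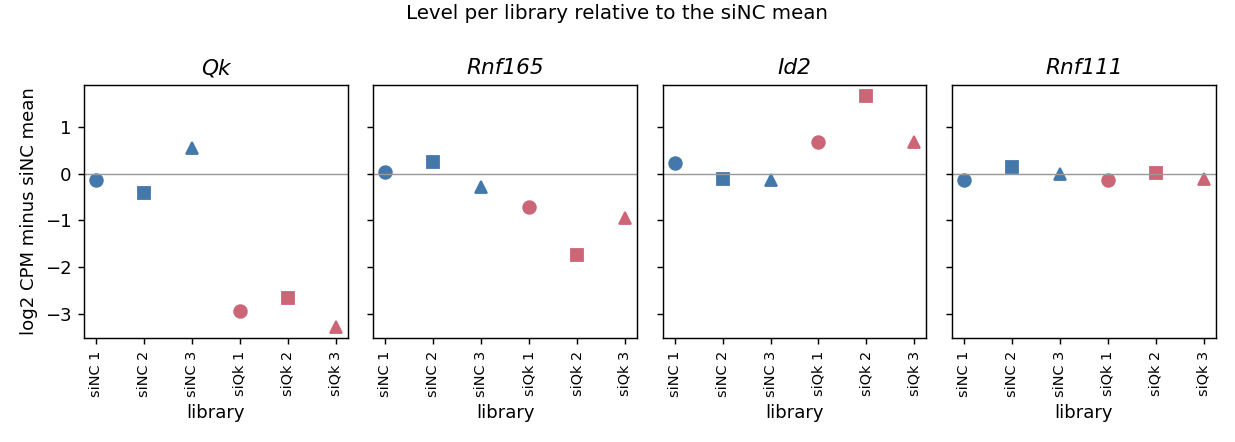
TMM-scaled log2 CPM of Qk, Rnf165, Id2 and Rnf111 in each library, minus the mean of the 3 siNC libraries (line at 0). siQk replicate 2 is lowest for Rnf165 (-1.74) and highest for Id2 (1.65), while Rnf111 stays between -0.13 and 0.14.

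Of the receptor-activated Smads, Smad1 (Entrez 17125, chromosome 8, 79338395 to 79399518, minus strand) was the most abundant. It stood at 18.4, 23.3 and 14.5 RPKM in the siNC libraries and at 21.4, 14.6 and 19.9 RPKM in the siQk libraries. The groups covered almost the same range, and the log2 fold change was -0.03 (SE 0.25). For Smad1 it ran from -0.16 without siNC replicate 3 to 0.13 without siNC replicate 2. Smad5 (Entrez 17129, chromosome 13, 56703010 to 56742377, plus strand), its close relative, stood at 12.04, 12.4 and 14.4 RPKM in the siNC libraries and at 11.5, 9.17 and 13.8 RPKM in the siQk libraries. The low value of siQk replicate 2 carried much of its log2 fold change of -0.20 (SE 0.20), which was -0.06 without that library and 0.06 when siNC replicate 3 was left out too. A small RNA gene, Gm27301, lies in 1.35% of its annotated exon sequence.

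Smad9 (Entrez 55994, chromosome 3, 54755582 to 54801257, plus strand) was the least abundant of the receptor-activated Smads of the BMP branch. It stood at 4.56, 8.88 and 7.40 RPKM in the siNC libraries and at 4.36, 5.48 and 5.07 RPKM in the siQk libraries. In siNC, 2 of 3 libraries lay above all of siQk, and replicate 1 lay inside the siQk range. The means were 6.94 ± 2.19 RPKM and 4.97 ± 0.567 RPKM (SD, n = 3), with a log2 fold change of -0.51 (SE 0.30). It ran from -0.74 without siNC replicate 1 to -0.33 without siNC replicate 2.

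Smad4 (Entrez 17128, chromosome 18, 73639009 to 73703780, minus strand), the partner shared by the BMP and TGF-beta branches, was among the most abundant members. It stood at 39.5, 31.1 and 33.8 RPKM in the siNC libraries and at 34.0, 45.8 and 37.2 RPKM in the siQk libraries. siQk replicate 2 was the highest library, and the others of both groups overlapped. On the log2 scale this was a fold change of 0.14 (SE 0.16), which without siQk replicate 2 was 0.0076.

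Both receptors overlapped between the groups. Bmpr1a (Entrez 12166, chromosome 14, 34410734 to 34503341, minus strand), a type I receptor that phosphorylates the Smads, stood at 34.4, 28.7 and 41.8 RPKM in the siNC libraries and at 29.9, 35.2 and 29.9 RPKM in the siQk libraries. Its log2 fold change was -0.18 (SE 0.20). On the opposite strand, Gm17110 lies in 4.57% of its annotated exon sequence, and the library kit named does not mark strand. Bmpr2 (Entrez 12168, chromosome 1, 59763400 to 59879014, plus strand), the type II receptor, stood at 10.3, 17.1 and 13.2 RPKM in the siNC libraries and at 14.6, 13.2 and 13.5 RPKM in the siQk libraries. All 3 siQk libraries lay inside the siNC range, and the log2 fold change was -1e-04 (SE 0.21).

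The 2 target genes differed from each other. Id1 (Entrez 15901, chromosome 2, 152736251 to 152737410, plus strand) encodes an inhibitor of basic helix-loop-helix transcription factors and is a classical early target of BMP-activated Smads. It stood at 22.3, 11.4 and 14.4 RPKM in the siNC libraries and at 10.5, 15.6 and 15.3 RPKM in the siQk libraries, with the highest and the second lowest library both in siNC. Its log2 fold change was -0.24 (SE 0.34), and the sign depended on siNC replicate 1, without which it was 0.06.

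Id2 (Entrez 15902, chromosome 12, 25093799 to 25097140, minus strand) encodes a related inhibitor. It stood at 3.89, 3.12 and 2.89 RPKM in the siNC libraries and at 5.31, 10.6 and 5.29 RPKM in the siQk libraries. Every siQk library lay above every siNC library, and siQk replicate 2 was about 2 times as high as the other 2. The means were 3.30 ± 0.524 RPKM for siNC and 7.07 ± 3.07 RPKM for siQk (SD, n = 3). The log2 fold change was 1.07 (SE 0.35) with all libraries and 0.66 without siQk replicate 2. These levels rest on 158 to 723 counts per library, and no other annotated gene shares its exons. The ratio of Id1 to Id2 in RPKM was 4.80 ± 1.05 in siNC and 2.12 ± 0.723 in siQk (SD, n = 3).

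Rnf165 and Id2 thus had their extreme values in the same library, siQk replicate 2, which also stood apart over all genes. What part that library's general difference has in either result was not tested. In siQk replicates 1 and 3 alone, log2 CPM relative to the siNC mean was -0.717 and -0.945 for Rnf165 and 0.67 in both for Id2.

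**Figure D3:**
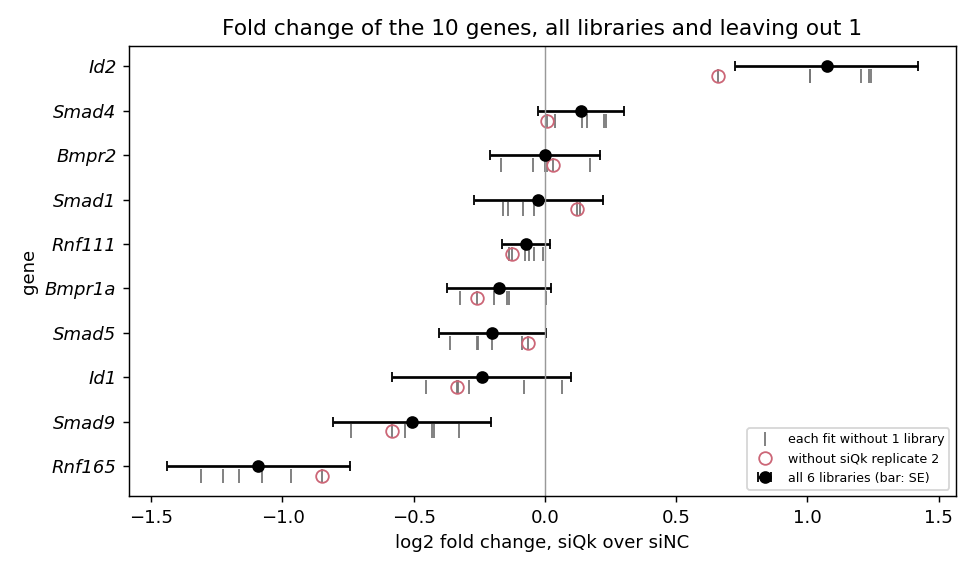
Log2 fold change (siQk over siNC) of the 10 members with all 6 libraries (black, bar for the SE), in each fit without 1 library (ticks), and without siQk replicate 2 (open circles). Rnf165 is at -1.09 and Id2 at 1.07 with all libraries, and Id2 moves to 0.66 without siQk replicate 2. The groups do not overlap for either gene, so a fit without 1 library could hardly change its side of 0.

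The rest of the pathway was examined in 51 further BMP genes, listed by role with earlier results of these data known. Of these, 26 passed the filter and 0 were called in either direction. Their log2 fold changes had a median of 0.07, with 15 above and 11 below 0. The median was -0.08 without siQk replicate 2. The groups did not overlap for 3 of the 26 (11.5%, beside 8.52% of all genes tested), which were Acvr2b, Smad6 and Tob1, each higher in siQk. At an unadjusted p under 0.05 there was 1 gene, higher in siQk, or 3.85% of those tested. Over all genes tested the share was 2.89%, with 1.69% lower and 1.20% higher.

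Among 13 ligands, 2 passed the filter. Bmp7, a secreted ligand, was by far the more abundant. It stood at 57.0, 75.8 and 35.7 RPKM in the siNC libraries and at 42.5, 45.2 and 45.9 RPKM in the siQk libraries, so the siQk libraries lay within the siNC range. Bmp8b stood at 1.60 RPKM over all libraries. Bmp2, Bmp3, Bmp4, Bmp10 and Gdf2 had 0 counts in every library, and a count of 0 allows up to 3 counts.

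Of 9 further receptors and co-receptors, 5 were tested. Acvr2b, a type II receptor for activins and BMPs, was the gene with an unadjusted p under 0.05. It stood at 6.81, 9.73 and 7.57 RPKM in the siNC libraries and at 9.97, 12.95 and 11.8 RPKM in the siQk libraries, and the groups did not overlap. Its log2 fold change was 0.50 (SE 0.18, adjusted p = 0.9996 over all genes, edgeR quasi-likelihood test), so it did not pass the call. Acvr1, a type I receptor, had 7.19 ± 0.774 RPKM for siNC and 7.09 ± 0.577 RPKM under siQk (SD, n = 3). The type I receptor Bmpr1b was not tested, with at most 7 counts in a library.

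Of 14 extracellular antagonists, 5 were tested and 0 had an unadjusted p under 0.05. Twsg1, a chordin-binding modulator, led at 31.0 RPKM, followed by the follistatin-like Fstl3 at 5.55 RPKM. Noggin (Nog) had 0 counts in every library. All 9 inhibitors in the cell or at the membrane were tested, led by the phosphatase Ppm1a (42.4 RPKM) and the antiproliferative protein Tob1 (15.6 RPKM), and 0 had an unadjusted p under 0.05. They include Ski, Skil and Smad7, known substrates of Rnf111. Ski had 14.6 ± 0.417 RPKM under siNC and 13.6 ± 1.82 RPKM under siQk, Skil had 8.63 ± 1.89 and 7.83 ± 0.483 RPKM, and Smad7 had 3.46 ± 0.239 and 4.61 ± 1.80 RPKM (SD, n = 3). Smad6, an inhibitory Smad, stood at 2.39, 2.35 and 2.14 RPKM in the siNC libraries and at 3.00, 2.44 and 2.76 RPKM in the siQk libraries. Neither its log2 fold change of 0.23 (SE 0.09) nor that of Tob1, 0.22 (SE 0.11), passed the test (adjusted p = 0.9996 for both, edgeR quasi-likelihood test). On the RPKM scale the groups overlapped for Tob1, at 13.5 to 15.03 RPKM in siNC and 14.98 to 19.7 RPKM in siQk.

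Of 6 further targets, 5 were tested and 0 had an unadjusted p under 0.05. Id3 and Id4, the other Id genes, had log2 fold changes of 0.18 (SE 0.46) and 0.18 (SE 0.33). Hey1, a Notch and BMP target, had -0.17 (SE 0.14).

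In the TGF-beta branch, which shares Smad4 and Rnf111 with BMP signalling, 8 of 12 genes were tested, 0 were called, and the median log2 fold change was 0.08. That median changed sign without siQk replicate 2 (-0.0411) or siNC replicate 1 (-0.0344), and was 0.1716 without siNC replicate 3. Tgfb1, a ligand, was the 1 gene with an unadjusted p under 0.05. It stood at 12.5, 8.74 and 7.60 RPKM in the siNC libraries and at 8.32, 4.89 and 5.81 RPKM in the siQk libraries, and siQk replicate 1 lay inside the siNC range. Its log2 fold change was -0.62 (SE 0.30, adjusted p = 0.9996, edgeR quasi-likelihood test). The ligand Tgfb2, the type I receptors Tgfbr1 and Acvr1b, and the transducers Smad2 and Smad3 stood at 11.4, 13.7, 8.92, 12.9 and 5.54 RPKM. The type II receptor Tgfbr2 had at most 2 counts in a library.

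**Figure D4:**
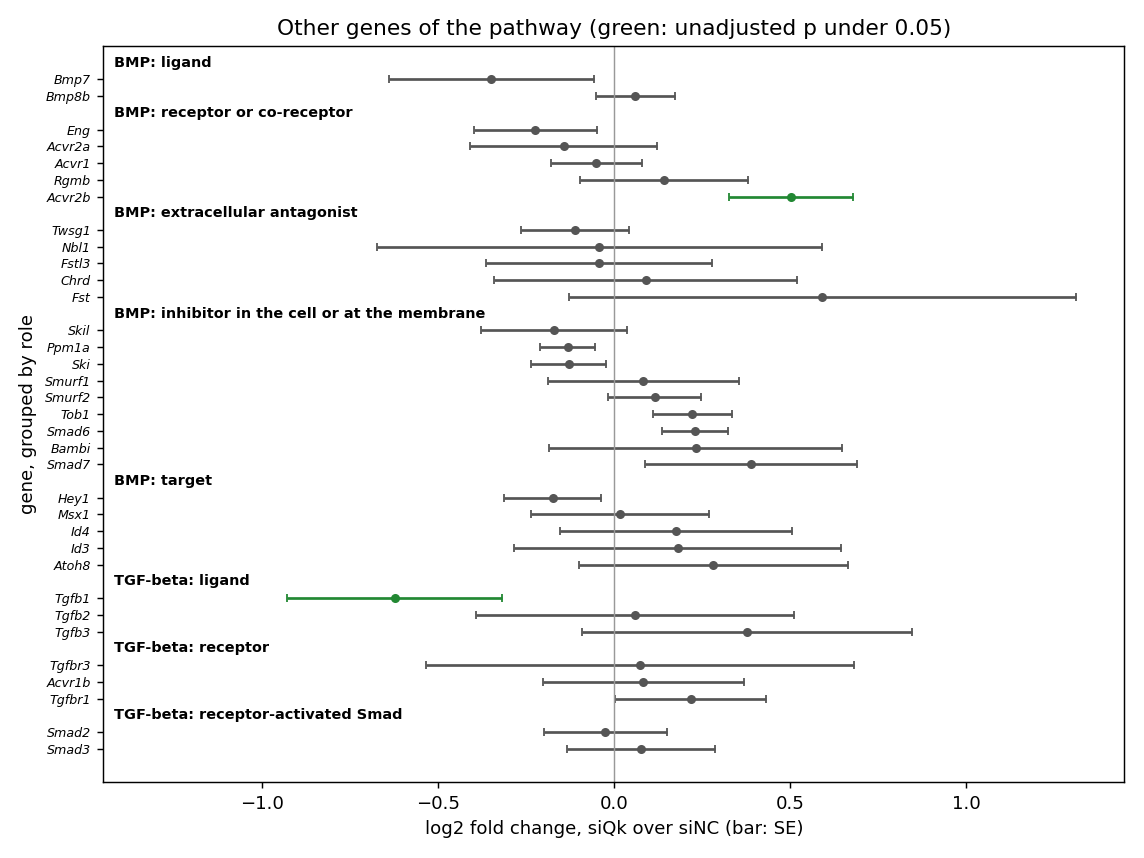
Log2 fold change (siQk over siNC, bar for the SE) of the 26 tested BMP genes and 8 tested TGF-beta genes outside the members, grouped by role, with unadjusted p under 0.05 in green. Acvr2b (0.50) and Tgfb1 (-0.62) are the green points, and 0 of these genes passed the call.

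The members were ordered by mean RPKM over the 6 libraries, which corrects for the exon length deposited with the counts. They ran from Smad4 (36.9) through Bmpr1a (33.3), Smad1 (18.7), Id1 (14.9), Bmpr2 (13.6), Smad5 (12.2), Rnf111 (11.7), Smad9 (5.96) and Id2 (5.19) to Rnf165 (2.88). For Bmpr2 that length was 3507 bases, while the transcript searched below has 12899, so its place depends on the annotation. Each of the 9 neighbouring pairs was compared by a two-sided exact permutation test over sign flips of the 6 within-library differences in log2 RPKM. Bmpr1a exceeded Smad1, and Rnf111 exceeded Smad9, in 6 of 6 libraries. Each of these pairs had an exact permutation p = 0.03125, the smallest this design allows, and an adjusted p of 0.141 over the 9 pairs. The other 7 pairs had an exact permutation p from 0.188 to 0.75, and no pair passed adjustment. The pairs and their direction came from these same libraries, and the smallest p is large for 9 pairs. The test therefore could hardly separate neighbours, and nothing is concluded from it. Id2 lay below both Smad9 and Rnf165 in each siNC library and above both in each siQk library. Those pairs thus follow the contrast that selected the list. In the siNC libraries alone, 7 of 9 pairs kept the order of mean RPKM. The exceptions were Bmpr1a above Smad4 and Rnf165 above Id2.

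The genes whose log2 CPM over the 6 libraries was most like that of Rnf165 were B3gnt1, 9930014A18Rik, Ccdc101, Lmo2 and Nfic, with Pearson correlations of 0.991, 0.989, 0.988, 0.985 and 0.984. The most opposite were Helb, Rbmx, Rab8b, Tmem50b and Snrpc, at -0.988, -0.988, -0.985, -0.982 and -0.981. These are the ends of 12664 correlations over only 6 libraries, of which the middle 90% spanned -0.79 to 0.80, and they share the difference between the groups. Lmo2, a transcriptional cofactor, had 4.51 RPKM under siNC and 2.81 RPKM under siQk, and the nuclear factor Nfic had 32.5 and 22.05 RPKM.

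Quaking binds RNA at the letters ACUAAC or ACUAAU, so both were counted, as ACTAAC and ACTAAT on the transcript strand, in the longest protein-coding GENCODE M21 transcript of each gene. Only that form was searched, so sequence that is intron in it was left out, whereas sequence it retains can be intron in another form. The Rnf165 transcript (7300 bases) held 3 matches, all outside the coding sequence, where 75% of transcripts within 10% of that length held at least 1. Smad9 held 0, and the other 8 members held 1 to 7. Of transcripts within 10% of their length, 94.3% held a match for Bmpr2, 71.6% for Smad5, 69.2% for Bmpr1a and 65.6% for Smad9. The share was 61.1% for Rnf111, 50.9% for Smad1 and 45.5% for Smad4. For the shorter transcripts of Id1 and Id2 it was 13.3% and 28.2%. Over all tested genes with a protein-coding transcript, 45.1% held a match. Enrichment was not tested. The letters around the sites of Rnf165, Smad4, Bmpr1a and Bmpr2 are not reported here. The sites of the targets Id1 and Id2 and of Smad1, Smad5 and Rnf111 are shown. Each has 12 bases on each side and the matched letters in capitals (RNA strand, with T for U).
Id1, GRCm38 chr2:152736853-152736858, plus strand, after the coding sequence: tatttaggggcgACTAATaggaaaaagctc
Id2, GRCm38 chr12:25096818-25096823, minus strand, before the coding sequence: tgtgcaaaccccACTAATgaccttcgatta
Smad1, GRCm38 chr8:79341886-79341891, minus strand, after the coding sequence: actgattacacaACTAACagttaaatgtta
Smad5, GRCm38 chr13:56741340-56741345, plus strand, after the coding sequence: agttgtttctacACTAACagaattctattt
Rnf111, GRCm38 chr9:70426540-70426545, minus strand, after the coding sequence: tttttatccattACTAACctttaatttaat
Rnf111, GRCm38 chr9:70425682-70425687, minus strand, after the coding sequence: gaaagttaacatACTAACatttctcctttg
Beside these counts, the log2 fold change was -1.09 for Rnf165 (3 matches), -1e-04 for Bmpr2 (7 matches), and -0.07 and -0.18 for Rnf111 and Bmpr1a (2 matches each). With 1 match each, Smad1, Smad5, Smad4, Id1 and Id2 had -0.03, -0.20, 0.14, -0.24 and 1.07, and Smad9, with 0 matches, had -0.51. The place of a match depended on the form. Both Rnf111 sites were exonic in 4 of 4 annotated protein-coding forms, and each of the other printed sites was exonic in 1 form. The Id1 form searched is unspliced, and its site lies in the intron of the spliced Id1 form. The Smad1 site lies in an intron of the other Smad1 form, and the Smad5 and Id2 sites lie outside the 2 other forms of each gene. The matches are a description of the letters and not of binding.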

How the data were processed

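The 6 libraries were grouped by the siRNA in their titles. The authors made libraries with a TruSeq version 2 kit, aligned 75-base read pairs with OLego and quantified genes with Quantas. Versions are not given in the sources used here. The labels name mm10, while the methods also give an older NCBI build, and positions come from GENCODE M21 of GRCm38, matched for 98.9% of the tested genes. The deposited files hold expected counts, exon lengths and RPKM values, which the authors scaled to each library's total. Between 21.8% and 22.9% of the expected counts were not whole, and they were rounded. TMM factors ran from 0.956 to 1.02. siQk was compared with siNC in edgeR 4.0.16 (quasi-likelihood F test, no other term, R 4.3.3). SEs are standard errors of the difference between the group means of log2 CPM (prior count 2), from the variance within each group. They are not the error of the edgeR fold change beside which they stand. Scripts were tested on simulated counts. The study's methods describe the replicates as independent.

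Members and lists were chosen with earlier results of these data known. Named genes are Qk, the members, list genes with an unadjusted p under 0.05, the 2 most abundant per role, the 5 most and least correlated with Rnf165, motor neuron markers and the leading gene of each other marker list, except oligodendrocytes, for which it is not reported here. Others named (Ski, Skil, Smad7, Smad6, Id4, Bmpr1b, Tgfbr2, Olig1, Olig2, Sox10 and genes at 0 counts) were picked after their values were seen. Alternatives covered scaling, filters, tests (DESeq2 1.42.0 among them), a replicate block and leaving out libraries. The fit without 2 libraries was added after the data were seen.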

Additional observations from a re-analysis of the deposited data

How the results depend on the processing

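With 3 libraries per group, these values rest on few libraries. The Qk fold change was negative in all 16 alternatives (-3.19 to -2.67 without 1 library) and lost its call without siNC replicate 1 (-3.09). The count of called genes was 5 in the edgeR exact and likelihood-ratio tests, 19 in DESeq2, and 0 to 1 without 1 library, with 0 without siNC replicate 1. The BMP and TGF-beta lists had 0 called genes in each alternative, and DESeq2 called 1 member, Rnf165. Their medians ran from -0.082 to 0.0733 (BMP) and from -0.0411 to 0.1716 (TGF-beta) without 1 library. Without both siNC replicate 3 and siQk replicate 2 they were -0.0026 and 0.28, Id2 was 0.60 and Smad5 was 0.0554. Without 1 library, Id2 ran from 0.66 to 1.24 and Smad5 from -0.36 to -0.06. The cause of these shifts was not tested. Across the 16 alternatives Rnf165, Rnf111 and Smad9 stayed below 0 and Id2 and Smad4 above it, whereas Bmpr1a, Bmpr2, Id1, Smad1 and Smad5 took both signs. For Qk, Rnf165 and Id2, whose groups did not overlap, a kept sign was nearly fixed in advance. In siNC alone 7 of 9 neighbours kept their order.

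Across genes, libraries that share a replicate number deviated from their group means with correlations of 0.213, 0.018 and -0.17, and a shared number was therefore read as a name only. With the replicate block Qk was -2.95, Rnf165 -1.13 and Id2 1.002, with 1 gene called.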
